A study of Mus musculus with 10 samples.

Results

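The 10 genes described here mark the stem cells of the intestinal crypt or are switched on there by Wnt signalling. They were chosen by symbol, as Lgr5, Ascl2, Olfm4, Smoc2, Axin2, Rnf43, Znrf3, Sox9, Ephb2 and Ephb3, and all 10 were found among the 24368 genes of the deposited table. Gene expression was measured by RNA-seq of total RNA from the proximal jejunum of mice. One group, labelled cKO, consisted of 5 mice with a conditional knockout of HuR in the intestinal epithelium, and the other, labelled WT, of 5 wild-type littermates, with 1 library per mouse (cKO 1 to 5, and WT 1, 3, 4, 5 and 6). HuR, the product of Elavl1, is a protein that attaches to messenger RNAs rich in A and U, and the study named fat absorption as its subject. The sources used here do not give the promoter that drives recombination, the deleted exons, the strain, the diet or the age and sex of the mice, nor do they say which libraries share a litter.

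The epithelium of the small intestine is renewed from stem cells at the base of the crypts, and their daughters divide, migrate up to the villus and are shed at its tip. Wnt ligands keep the stem cells dividing by stabilising beta-catenin, which joins TCF factors on the promoters and enhancers of target genes, and R-spondins raise the response by binding Lgr receptors. Several target genes act back on the pathway as brakes, and others place cells along the axis between crypt and villus. The libraries held RNA of the whole piece of tissue, so fewer cells of a type and less RNA per cell cannot be told apart in any value below.

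The 10 libraries held between 16063987 (cKO 1) and 18927440 (cKO 5) reads counted in genes, and levels are given as normalised reads, which are reads scaled by the size factor of their library. The level of Elavl1 averaged 633 ± 60.6 normalised reads in cKO libraries and 666 ± 36 in WT libraries (SD, n = 5 each), with a log2 fold change of -0.076 (95% interval -0.36 to 0.21, limma adjusted p = 0.798). Which exons were deleted is unknown, and reads summed over the gene cannot check the deletion, so every direction below rests on the labels. For the labelled tissue, 5 genes of ileal bile acid handling gave a mixed picture. Fabp6, a bile acid binding protein gene, reached 3.81 normalised reads at most in cKO libraries and was listed at 0 in all 5 WT libraries. The uptake transporter gene Slc10a2 lay between 11.1 and 221 normalised reads in cKO libraries and between 124 and 242 in WT libraries. The other 3, Slc51a, Slc51b and Nr1h4, were well detected, and the 5 genes summed to between 5484 and 10272 normalised reads in cKO libraries and between 5225 and 7806 in WT libraries. The sum of 7 gastric and pancreatic markers lay between 123 and 211 normalised reads in cKO libraries and between 120 and 198 in WT libraries, whereas the sum of 15 enterocyte markers lay between 896980 and 1823500 in cKO libraries and between 1344600 and 1524700 in WT libraries.

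The sequence around a transcription start is shown for Olfm4, which had the highest level among the 10, and for Axin2 and Ephb2, which varied together across the libraries. RefSeq (GRCm38.p6) gave windows of 300 bases, 250 before and 50 after a transcription start, for 6 of the 10 genes. The windows are at chr14:80000052-80000351 on the plus strand for Olfm4, at chr11:108920099-108920398 on the plus strand for Axin2 and at chr4:136835963-136836262 on the minus strand for Ephb2. The Olfm4 window lies inside the gene as annotated at chr14:79984081-80023139, and not at the outer start of that annotation. Capitals mark the letters CCAAT, which read ATTGG where they lie on the other strand, and TATAA.
Olfm4: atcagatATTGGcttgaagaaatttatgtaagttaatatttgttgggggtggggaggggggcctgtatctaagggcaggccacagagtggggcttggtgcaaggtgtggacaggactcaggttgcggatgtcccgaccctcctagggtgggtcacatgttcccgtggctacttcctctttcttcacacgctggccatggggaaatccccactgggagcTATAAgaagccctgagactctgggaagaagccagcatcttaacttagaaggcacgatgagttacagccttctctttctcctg
Axin2: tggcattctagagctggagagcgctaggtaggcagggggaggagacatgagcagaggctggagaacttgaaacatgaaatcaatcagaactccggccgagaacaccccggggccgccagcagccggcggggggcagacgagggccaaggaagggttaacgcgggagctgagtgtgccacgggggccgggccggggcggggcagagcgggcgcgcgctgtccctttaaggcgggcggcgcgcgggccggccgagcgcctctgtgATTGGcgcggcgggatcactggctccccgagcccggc
Ephb2: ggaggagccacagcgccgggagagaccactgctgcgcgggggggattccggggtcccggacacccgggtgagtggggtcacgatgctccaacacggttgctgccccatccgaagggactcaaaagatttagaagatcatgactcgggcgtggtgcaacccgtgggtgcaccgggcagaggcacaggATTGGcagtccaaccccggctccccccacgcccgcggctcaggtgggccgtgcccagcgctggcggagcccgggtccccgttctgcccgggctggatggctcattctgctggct
In the Olfm4 window TATAA began 32 bases before the start. The CCAAT letters began 243 bases before the start in Olfm4, 64 bases before it in Ephb2 and 13 bases after it in Axin2.

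Base composition set the windows apart. GC content was 70.0% for Axin2, 68.7% for Ephb2, 67.0% for Ascl2 and 66.7% for Ephb3, against 52.3% for Olfm4 and 46.7% and 44.3% for the 2 windows of Rnf43, with a median of 52.7% over all 32851 windows. The Axin2 window held 31 CpG pairs and the Ephb2 window 24, whereas the Olfm4 window held 5. CCAAT, searched on both strands, was found in 4 of the 7 windows, those of Ascl2, Olfm4, Axin2 and Ephb2, and in 37.4% of all windows. TATAA, searched on both strands, was found in the window of Olfm4 alone among the 7 and in 24.9% of all windows. The letters CTTTG followed by AA, AT, TA or TT, which are forms of the site that TCF factors bind, were searched on both strands and found in 0 of the 7 windows, against 16.9% of all windows. No match says only that these letters are not in these windows, and the binding of TCF factors was not measured.

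Among the 10 genes the mean of log2(normalised reads + 1) was higher in cKO than in WT for Lgr5, Ascl2, Olfm4, Smoc2, Axin2, Znrf3, Ephb2 and Ephb3, by log2 fold changes between 0.22 and 0.81, and no gene passed the test. Rnf43 and Sox9 had log2 fold changes of -0.34 and -0.17, the second of which turned above 0 in edgeR and DESeq2. Of the 10 genes, 9 had a mean of at least 10 normalised reads and were tested, and 0 of these 9 had an adjusted p under 0.05 in limma, in edgeR or in DESeq2. The same threshold was passed by 1.32% of 14062 genes in limma, 1.29% in edgeR and 4.67% of 15229 genes in DESeq2. At an unadjusted p under 0.05 the count was 0 of 9 in limma, 1 in edgeR (Olfm4) and 2 in DESeq2 (Olfm4 and Axin2), against 18.6%, 19.0% and 18.8% of all genes tested by each tool. The cKO and WT values overlapped for all 10 genes, whereas 4.87% of all genes tested did not overlap. The log2 fold change was above 0 for 8 of the 10 genes (9 in DESeq2, which adds Sox9) and for 51.0% of the genes tested. The median over the 10 genes was 0.33, beside a median of 0.010 over all genes tested.

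**Figure D1:**
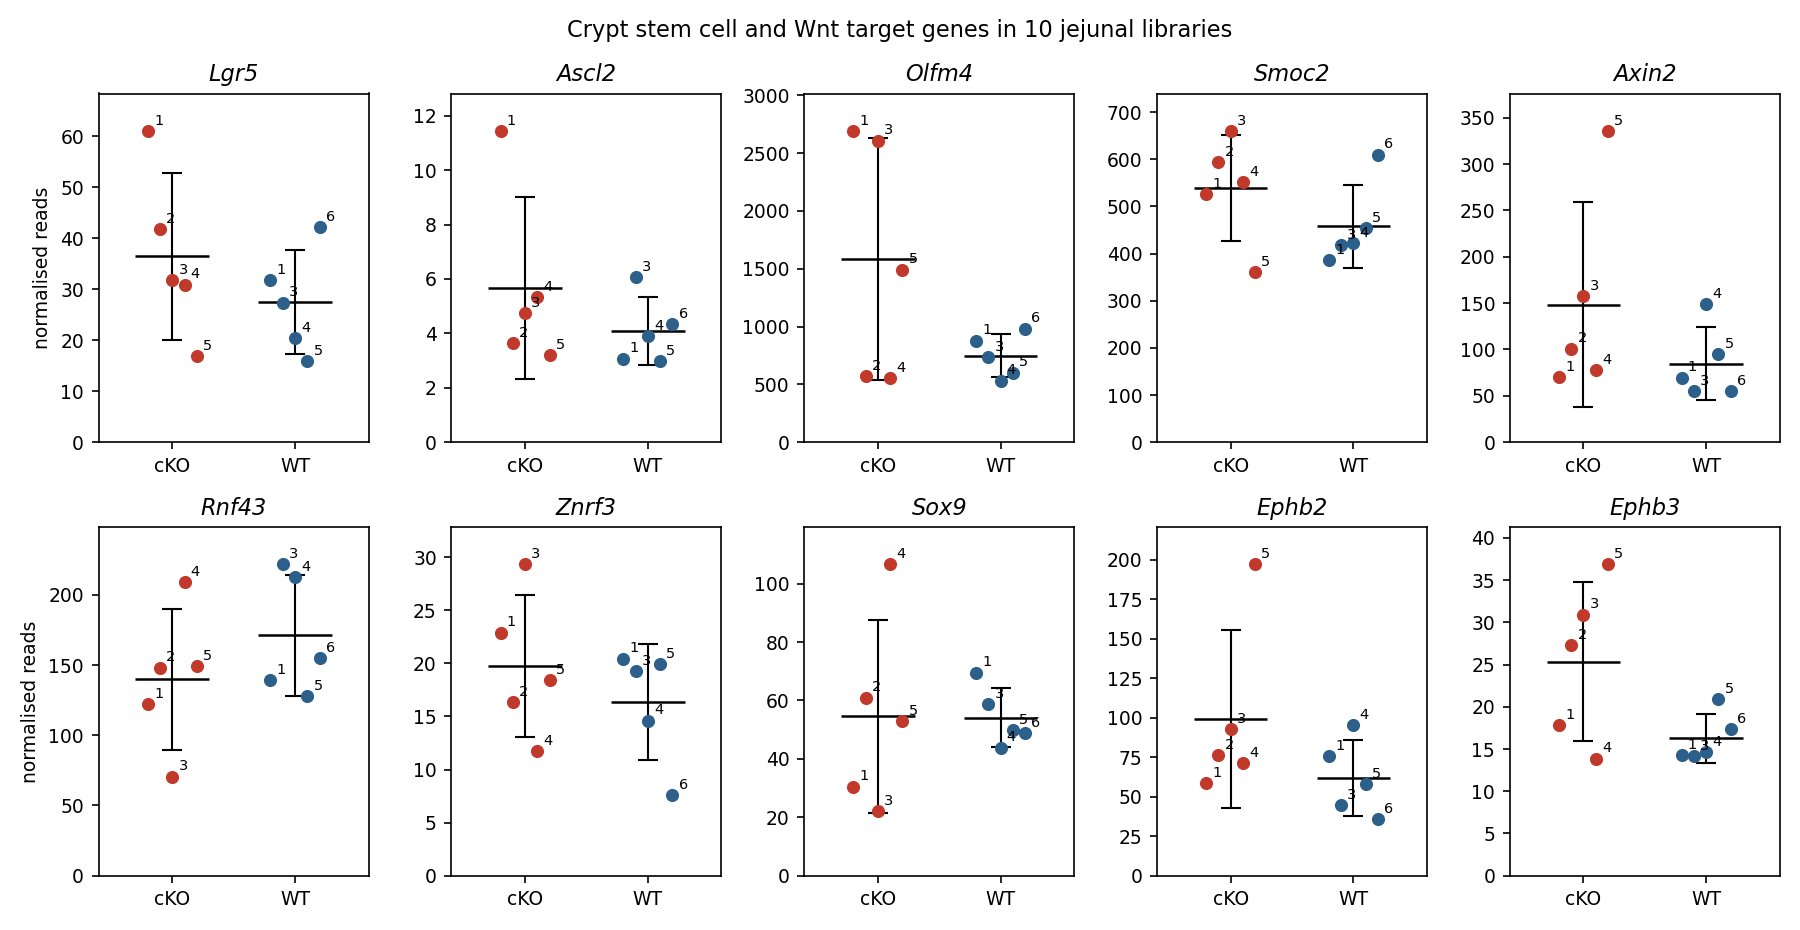
Normalised reads (vertical axis, from 0) of the 10 genes in the 5 cKO libraries (red) and 5 WT libraries (blue), where numbers name the library, the long bar is the mean and the whiskers are 1 SD. Olfm4 shows 3 cKO libraries between 1492 and 2692, above the highest WT library at 981, and 2 cKO libraries at 555 and 572, within the WT range.

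Lgr5 (ENSMUSG00000020140, chr10:115450311-115587780, minus strand, mm10) encodes a receptor for R-spondins and is the defining marker of the cycling stem cells at the crypt base. It had 61.0, 41.8, 31.7, 30.9 and 16.8 normalised reads in cKO 1 to 5, against 31.7, 27.3, 20.5, 16 and 42.2 in WT 1, 3, 4, 5 and 6. cKO 1 stood above every WT library, and the other 4 cKO libraries lay within the WT range. The means were 36.5 ± 16.4 in cKO and 27.5 ± 10.2 in WT (SD, n = 5 each), a log2 fold change of 0.35 (95% interval -0.39 to 1.09, limma adjusted p = 0.613). These levels rest on 16 to 48 reads per library. The log2 fold change of Lgr5 was 0.14 without cKO 1 and 0.59 without cKO 5. The authors' deposited table gave -0.00094 for Lgr5, with an adjusted p of 0.999.

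Ascl2 (ENSMUSG00000009248, chr7:142966829-142969264, minus strand) encodes a transcription factor that maintains the crypt stem cell fate. It had 11.4, 3.64, 4.76, 5.33 and 3.21 normalised reads in cKO 1 to 5, against 3.07, 6.08, 3.90, 2.99 and 4.33 in WT 1, 3, 4, 5 and 6. As for Lgr5, cKO 1 alone stood above the WT libraries. With 3 to 9 reads per library and 48 in all, Ascl2 was under the minimum mean of 10 and was not tested, and at this depth a difference could not be resolved. Its means were 5.67 ± 3.34 in cKO and 4.07 ± 1.25 in WT, a log2 fold change of 0.31 that became 0.058 without cKO 1.

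Olfm4 (ENSMUSG00000022026, chr14:79984081-80023139, plus strand) encodes a secreted glycoprotein that crypt base stem cells of the small intestine make in large amounts. It had 2692, 572, 2609, 555 and 1492 normalised reads in cKO 1 to 5, against 878, 736, 533, 602 and 981 in WT 1, 3, 4, 5 and 6. The cKO libraries fell apart, with cKO 1, 3 and 5 above the highest WT library and cKO 2 and 4 among the lower WT libraries. The means were 1584 ± 1045 in cKO and 746 ± 186 in WT, and the log2 fold change of 0.81 had an interval of -0.21 to 1.82 (limma adjusted p = 0.375) and was 0.54 without cKO 1 and 1.10 without cKO 4. The authors' deposited table gave a log2 fold change of 1.05 for Olfm4 with an adjusted p of 0.0574, where 2.49% of all 24368 genes were under 0.05. Depth was no limit here, at 521 to 3291 reads per library. One lincRNA, Gm6999, shares 153 exon bases with Olfm4 on the same strand and averaged 0.536 normalised reads.

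The same 3 cKO libraries were also the highest cKO libraries for the sum of 22 proliferation genes, which was 6315, 2971, 4781, 3789 and 4564 normalised reads in cKO 1 to 5 and between 3114 and 4354 in WT libraries. The genes of this list did not all follow their sum. Among cKO libraries Mki67 was highest in cKO 1, at 998, whereas Plk1 was lowest in cKO 1, at 42.0, and highest in cKO 4, at 87.4. The 14 Paneth cell markers, which mark the secretory neighbours of the stem cells, summed to 29829, 13731, 4253, 3762 and 13884 normalised reads in cKO 1 to 5 and to between 3061 and 21777 in WT libraries, so cKO 3 was high in Olfm4 and low in Paneth cell markers. The part of either in the Olfm4 values was not tested.

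Smoc2 (ENSMUSG00000023886, chr17:14279506-14404790, plus strand) encodes a secreted matrix protein that is enriched in crypt stem cells and is also made by stromal cells. It had 526, 594, 660, 552 and 360 normalised reads in cKO 1 to 5, against 387, 417, 422, 454 and 610 in WT 1, 3, 4, 5 and 6. All but 1 of the cKO libraries lay above all but 1 of the WT libraries, while cKO 5 was the lowest and WT 6 the second highest of all 10. The means were 539 ± 112 in cKO and 458 ± 88.1 in WT, a log2 fold change of 0.22 (95% interval -0.17 to 0.62, limma adjusted p = 0.534) that was 0.14 without cKO 3 and 0.36 without cKO 5. cKO 3, highest for Smoc2, and cKO 5, lowest for it, were also the highest and lowest cKO libraries for the sum of 12 fibroblast markers. That sum lay between 9721 and 13211 normalised reads in cKO libraries and between 8917 and 10613 in WT libraries, and its part in the Smoc2 values was not tested.

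Axin2 (ENSMUSG00000000142, chr11:108920349-108950783, plus strand) encodes a scaffold of the complex that marks beta-catenin for destruction, and is a widely used readout of Wnt signalling because the pathway switches on this brake in most tissues. It had 69.9, 101, 158, 77.8 and 336 normalised reads in cKO 1 to 5, against 69.5, 54.7, 149, 94.8 and 55.2 in WT 1, 3, 4, 5 and 6. cKO 5 was higher than any other library, cKO 3 lay just above WT 4, and the remaining cKO libraries lay within the WT range. The means were 148 ± 110 in cKO and 84.7 ± 39.5 in WT, a log2 fold change of 0.65 (95% interval -0.22 to 1.52, limma adjusted p = 0.405), and the value without cKO 5 was 0.29. An antisense gene, Gm11670, shares 209 exon bases with Axin2, and since the strand setting of the counting is not given, reads from that stretch cannot be told apart.

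cKO 3 and cKO 5, the highest cKO libraries for Axin2, Ephb2 and Ephb3, differed from the rest in clock genes. The clock gene Per2 was at 393, 342, 12.7, 526 and 16 normalised reads in cKO 1 to 5 and between 529 and 749 in WT libraries. Without these 2 libraries the log2 fold change was 0.061 for Axin2, 0.23 for Ephb2, 0.22 for Ephb3 and 0.38 for Olfm4, with limma adjusted p-values of 0.956, 0.800, 0.836 and 0.790. The other genes did not all shift in that direction, as Lgr5 then had 0.70 and Smoc2 0.30.

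Rnf43 (ENSMUSG00000034177, chr11:87662722-87735539, plus strand) and Znrf3 encode related ubiquitin ligases that remove Frizzled receptors from the cell surface, a brake that R-spondins release. Rnf43 had 122, 148, 70.5, 209 and 149 normalised reads in cKO 1 to 5, against 139, 222, 212, 128 and 155 in WT 1, 3, 4, 5 and 6. No cKO library exceeded the WT range, and cKO 1 and cKO 3 lay under it. The means were 140 ± 50.1 in cKO and 171 ± 43.1 in WT, a log2 fold change of -0.34 (95% interval -0.89 to 0.21, limma adjusted p = 0.505). Without cKO 3 it was -0.11.

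Znrf3 (ENSMUSG00000041961, chr11:5276324-5444847, minus strand) had 22.9, 16.4, 29.3, 11.7 and 18.4 normalised reads in cKO 1 to 5, against 20.5, 19.2, 14.6, 20.0 and 7.58 in WT 1, 3, 4, 5 and 6. cKO 3 was the highest library for Znrf3 and the lowest for Rnf43. The Znrf3 means were 19.8 ± 6.69 in cKO and 16.4 ± 5.43 in WT, a log2 fold change of 0.27 (95% interval -0.49 to 1.03, limma adjusted p = 0.718) that became 0.035 without WT 6 and 0.43 without cKO 4. Counting error was large here, at 7 to 37 reads per library.

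Sox9 (ENSMUSG00000000567, chr11:112782224-112787760, plus strand) encodes a transcription factor that Wnt signalling switches on in crypt progenitors and that Paneth cells need. It had 30.5, 60.9, 22.2, 107 and 52.9 normalised reads in cKO 1 to 5, against 69.5, 58.7, 43.9, 49.9 and 48.7 in WT 1, 3, 4, 5 and 6. The cKO libraries lay on both sides of a narrow WT range, with cKO 4 above it and cKO 1 and cKO 3 under it. The means were close, at 54.6 ± 33.1 in cKO and 54.1 ± 10.1 in WT. The log2 fold change was -0.17 (95% interval -0.90 to 0.56, limma adjusted p = 0.823), and its sign turned to 0.015 in edgeR and to 0.0089 in DESeq2.

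Ephb2 (ENSMUSG00000028664, chr4:136647539-136835988, minus strand) and Ephb3 encode receptor tyrosine kinases for ephrin-B ligands, are switched on by beta-catenin and TCF, and keep crypt cells in their positions. Ephb2 had 58.5, 76.4, 92.7, 71.4 and 197 normalised reads in cKO 1 to 5, against 75.7, 44.6, 95.5, 57.9 and 35.7 in WT 1, 3, 4, 5 and 6. cKO 5 stood far above the rest, and the other 4 cKO libraries lay within the WT range. The means were 99.2 ± 56.1 in cKO and 61.9 ± 24.1 in WT, a log2 fold change of 0.62 (95% interval -0.081 to 1.32, limma adjusted p = 0.327) that was 0.34 without cKO 5. Its unadjusted limma p of 0.0791 was the smallest of the 9 genes tested.

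Ephb3 (ENSMUSG00000005958, chr16:21204755-21223305, plus strand), which Paneth cells express in particular, had 17.8, 27.3, 30.9, 13.9 and 36.9 normalised reads in cKO 1 to 5, against 14.3, 14.2, 14.6, 20.9 and 17.3 in WT 1, 3, 4, 5 and 6. cKO 2, 3 and 5 stood above all WT libraries, cKO 1 lay within their range and cKO 4 just under it. The means were 25.3 ± 9.44 in cKO and 16.3 ± 2.91 in WT, a log2 fold change of 0.54 (95% interval -0.14 to 1.22, limma adjusted p = 0.377), on 13 to 46 reads per library.

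**Figure D2:**
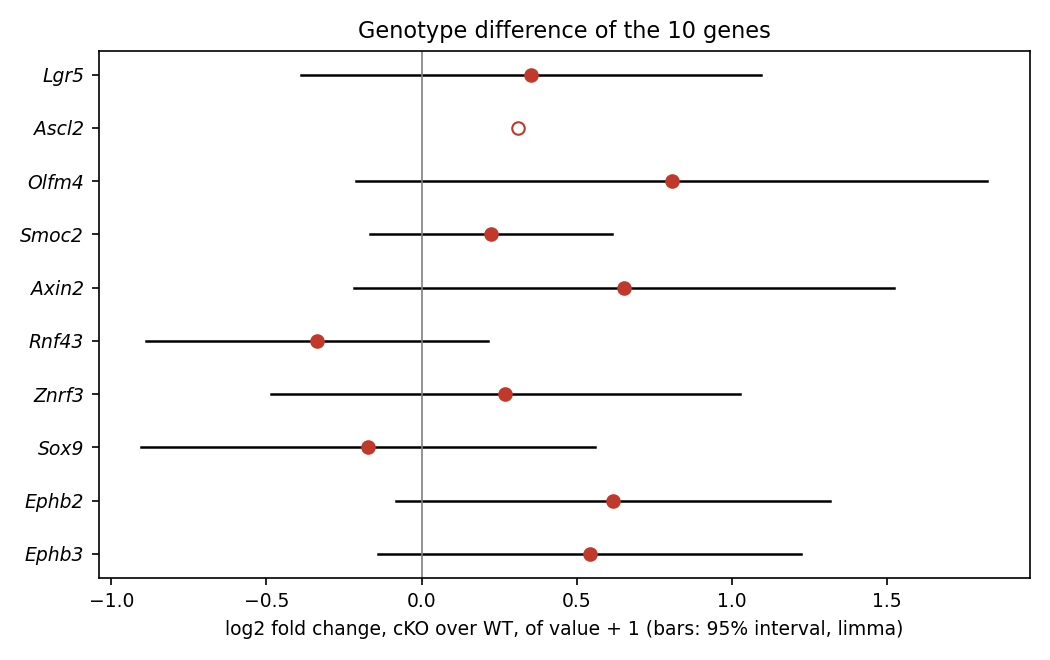
Log2 fold change of each gene, cKO over WT, on the scale of log2(normalised reads + 1) (points), with 95% intervals from limma (bars); the open circle for Ascl2 has no interval because its mean was under 10. The 8 points right of 0 lie between 0.22 and 0.81, and every interval includes 0.

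The spread between mice was wider in cKO than in WT for each of the 10 genes when measured as the SD in percent of the mean, a difference that was not tested. It was 74.3% in cKO and 46.7% in WT for Axin2, 66.0% in cKO and 25.0% in WT for Olfm4, and 60.5% in cKO against 18.7% in WT for Sox9. The narrowest gaps were those of Znrf3, at 33.9% in cKO and 33.2% in WT, and of Smoc2, at 20.8% in cKO and 19.3% in WT. How many of all genes tested had the wider spread in cKO was not counted, so the wider spread cannot be called particular to these 10. Elavl1 also had a wider SD in cKO, at 60.6 against 36 in WT. Over all genes tested, libraries correlated with each other at 0.946 to 0.972 within cKO and at 0.965 to 0.977 within WT.

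Between genes, levels were compared per kilobase of gene length in normalised reads. Olfm4 was the highest, at 535 ± 353 in cKO and 252 ± 62.9 in WT, and Smoc2 came next at 77.5 ± 16.1 in cKO and 65.9 ± 12.7 in WT. In both groups Olfm4 did not overlap Smoc2 and Smoc2 did not overlap Rnf43, but Axin2 reached 61.0 in a cKO library, above the lowest cKO value of Smoc2 at 51.8. Rnf43 (21.3 ± 7.64 in cKO, 26.1 ± 6.58 in WT), Axin2 (27.0 ± 20.0 in cKO, 15.4 ± 7.18 in WT) and Sox9 (13.2 ± 8.0 in cKO, 13.1 ± 2.45 in WT) formed the middle of the order, and neighbours among them overlapped. Sox9 and Ephb2, at 7.87 ± 4.45 in cKO and 4.91 ± 1.91 in WT, were apart in WT libraries and overlapped in cKO libraries. The lowest were Lgr5 at 3.55 ± 1.59 in cKO and 2.68 ± 0.995 in WT, Ascl2 at 3.50 ± 2.06 in cKO and 2.51 ± 0.772 in WT, Ephb3 at 3.82 ± 1.42 in cKO and 2.45 ± 0.439 in WT, and Znrf3 at 2.50 ± 0.848 in cKO and 2.07 ± 0.688 in WT, and these 4 overlapped in both groups.

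The genes did not share 1 pattern over the libraries. In normalised reads, cKO 1 was the highest library for Lgr5, Ascl2 and Olfm4, cKO 3 for Smoc2 and Znrf3, cKO 4 for Sox9 and cKO 5 for Axin2, Ephb2 and Ephb3, while Rnf43 was highest in WT 3. The scaling matters for Olfm4, as 1 read counted as 1.27 normalised reads in cKO 1 and as 0.793 in cKO 3. Before scaling, Olfm4 had 2117 reads in cKO 1 and 3291 in cKO 3. Of the 10 genes, 6, 6, 8, 4 and 6 lay above their own median over the libraries in cKO 1 to 5, and 5, 4, 3, 3 and 5 in WT 1, 3, 4, 5 and 6. Mitochondrial genes took 9.48% of the normalised reads in cKO 1, the highest share, and 2.69% in WT 5, the lowest.

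**Figure D3:**
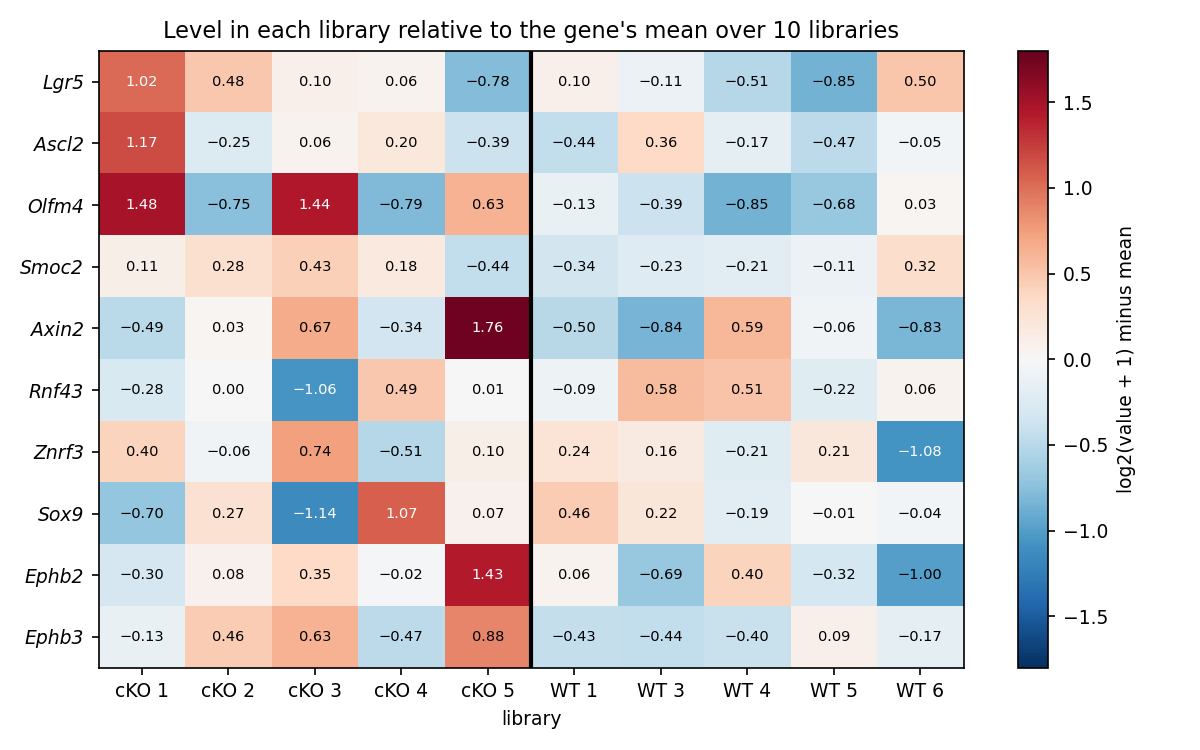
Heat map of log2(normalised reads + 1) minus the mean of the gene over the 10 libraries, with genes in rows and libraries in columns, cKO left of the black line and WT right of it (red above, blue below the mean). Axin2 and Ephb2 are highest in cKO 5, at 1.76 and 1.43, where Lgr5 is at -0.78.

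Across the 10 libraries the 45 pairs of genes were compared on the log2 scale by permutation tests (100000 resamples, two-sided), with Benjamini-Hochberg adjustment over the 45. Positive correlations were found for 19 pairs and negative ones for 26. One pair passed the adjustment by Pearson's r, Axin2 and Ephb2 with r = 0.934 (permutation p = 0.00012, adjusted p = 0.0054), and Spearman's rho was 0.867 (permutation p = 0.00224, adjusted p = 0.101). Without cKO 3 and cKO 5, the libraries farthest from the Axin2 median, r was 0.816, and with the group means removed it was 0.920. With 5 libraries, neither group was large enough for a correlation of its own.

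**Figure D4:**
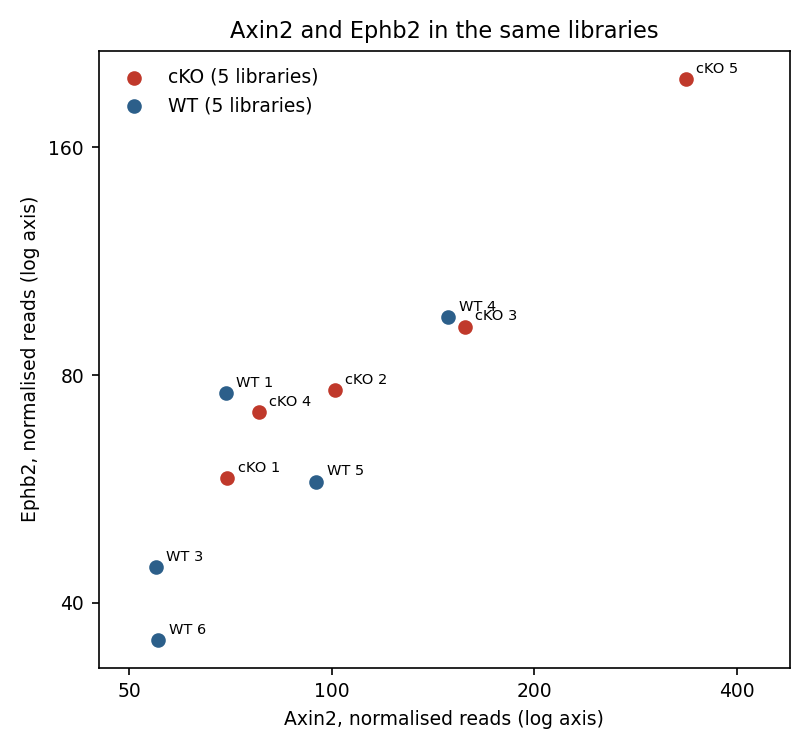
Normalised reads of Axin2 (horizontal) and Ephb2 (vertical), both on log axes, in the 5 cKO libraries (red) and 5 WT libraries (blue), 1 point per library. cKO 5 is at the upper right, at 336 for Axin2 and 197 for Ephb2, cKO 3 lies next to WT 4, and the other cKO libraries are within the WT ranges.

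No other pair passed the adjustment, and 5 of them had an unadjusted Pearson p under 0.05. Axin2 and Ephb3 had r = 0.749 (permutation p = 0.0110, adjusted p = 0.161; rho = 0.709, permutation p = 0.0266, adjusted p = 0.399), and r was 0.245 without cKO 3 and cKO 5. Olfm4 and Sox9 had r = -0.749 (permutation p = 0.0111, adjusted p = 0.161; rho = -0.503, permutation p = 0.143, adjusted p = 0.715), and r was -0.213 without cKO 1 and cKO 3. The stem cell markers Lgr5 and Ascl2 had r = 0.673 (permutation p = 0.0293, adjusted p = 0.220; rho = 0.455, permutation p = 0.193, adjusted p = 0.715), which became 0.192 without cKO 1 and WT 5. Olfm4 and Rnf43 had r = -0.726 (permutation p = 0.0143, adjusted p = 0.161; rho = -0.612, permutation p = 0.0672, adjusted p = 0.560), and r was -0.351 without cKO 1 and cKO 3. Rnf43 and Sox9 had r = 0.727 (permutation p = 0.0220, adjusted p = 0.198; rho = 0.418, permutation p = 0.231, adjusted p = 0.715), and r was 0.490 without cKO 3 and WT 3. In some pairs that did not reach this level r was larger without the 2 farthest libraries, as for Lgr5 and Axin2, with r = -0.564 (permutation p = 0.0895, adjusted p = 0.366; rho = -0.418, permutation p = 0.234, adjusted p = 0.715) and -0.706 without cKO 1 and WT 5.

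For the 3 stem cell markers Lgr5, Ascl2 and Olfm4, the genes with the most similar values were sought among 8570 genes with a mean of at least 100, by the correlation over the 10 libraries after the group means were removed. Lgr5 was most like Yipf4 (r = 0.940), Lyrm2 (0.924) and Dpysl2 (0.912), and with the group means kept these r were lower, at 0.665, 0.791 and 0.682. Ascl2 was most like Ghitm (0.983), Cox7c (0.979) and Spcs1 (0.973), and Olfm4 most like Rpf2 (0.977), Ddx52 (0.968) and Tmed5 (0.967). With the group means kept, r was 0.803, 0.981 and 0.829 for the genes like Ascl2 and 0.983, 0.907 and 0.969 for those like Olfm4. The Ascl2 values rest on 3 to 9 reads per library. These values describe the nearest of many genes over the same 10 libraries, and no test was made of them. In normalised reads the highest values of Lgr5, Ascl2 and Olfm4 came from the library with the highest mitochondrial share, which for Olfm4 depends on the scaling.

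Other genes of the stem cell and its signals were mostly not past the test. The counts in every list below stand beside the shares over all genes tested. An unadjusted limma p under 0.05 was found for 18.6% of these, and groups without overlap for 4.87%. In DESeq2, 4.67% of the genes it tested had an adjusted p under 0.05. Of 15 other stem cell genes tested, 0 passed in limma, edgeR or DESeq2 and 6 had an unadjusted limma p under 0.05, with a median log2 fold change of 0.19 and 9 values above 0. The smallest limma p was that of Pdgfa, at 332 to 628 normalised reads in cKO libraries and 540 to 865 in WT libraries (log2 fold change -0.58, limma adjusted p = 0.135). Nav1 came next, with a log2 fold change of 0.64 (limma adjusted p = 0.168). Of 11 other Wnt targets tested, 1 rose and 0 fell, where 0.441% of all genes tested rose and 0.882% fell in limma, and the median was 0.32. Log2 fold changes were above 0 for 7 of the 11, and 2 genes had an unadjusted limma p under 0.05. Sp5, 1 of these 2, went down, with a log2 fold change of -0.84 (limma adjusted p = 0.151). The gene that rose was Ccnd1, which encodes cyclin D1, a driver of entry into the cell cycle. It had 207, 267, 396, 295 and 448 normalised reads in cKO 1 to 5, against 162, 65.8, 160, 139 and 119 in WT 1, 3, 4, 5 and 6. The groups did not overlap, and the log2 fold change was 1.33 (95% interval 0.78 to 1.89, limma adjusted p = 0.0254). The adjusted p was above 0.05 when cKO 3, cKO 5, WT 3, WT 4 or WT 6 was left out, reaching 0.0727 without cKO 3, and was 0.149 without both cKO 3 and cKO 5.

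Among the ligands, 0 of 12 Wnt and R-spondin genes tested passed in limma or edgeR, 1 did in DESeq2 (Rspo1), and 2 had an unadjusted limma p under 0.05. Rspo1, an R-spondin that feeds Lgr5 and its relatives, had 91.6, 166, 124, 130 and 90.6 normalised reads in cKO 1 to 5, against 70.6, 77.0, 59.4, 48.9 and 88.8 in WT 1, 3, 4, 5 and 6, without overlap. Its log2 fold change was 0.79 (limma adjusted p = 0.0941), and that of Wnt6, a Wnt ligand, was -1.72 (limma adjusted p = 0.106). Wnt6 was near the floor, at 5.09, 17.3, 0.793, 7.46 and 3.21 normalised reads in cKO 1 to 5 and between 14.6 and 21.3 in WT libraries. Its value in cKO 3 was that of 1 read. The log2 fold change of Wnt6 was -2.13 without cKO 2, -1.29 without cKO 3 and -0.98 without both cKO 3 and cKO 5. Of 14 receptors and co-receptors tested, 0 passed by any of the 3 tools and 1 had an unadjusted limma p under 0.05, with 12 values above 0 and a median of 0.27. The co-receptor gene Lrp6 had 423, 307, 400, 408 and 406 normalised reads in cKO 1 to 5 and between 240 and 353 in WT libraries (log2 fold change 0.42, limma adjusted p = 0.198).

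Of the secreted antagonists, 5 were tested and 0 passed in limma or edgeR, with 1 passing in DESeq2 (Sfrp2) and 1 with an unadjusted limma p under 0.05. Sfrp2, a decoy that binds Wnt ligands, had 38.1, 78.2, 44.4, 46.9 and 22.4 normalised reads in cKO 1 to 5, against 19.4, 22.3, 4.87, 6.98 and 17.3 in WT 1, 3, 4, 5 and 6. cKO 5 was just above WT 3, so the groups did not overlap, and the log2 fold change was 1.72 (limma adjusted p = 0.0591). Inside the cell, 0 of 18 genes of beta-catenin and its destruction complex and 0 of 11 TCF factors and co-activators passed by any of the 3 tools, with 4 and 1 at an unadjusted limma p under 0.05 and medians of -0.083 and -0.036. Dvl1, which passes the signal on from Frizzled receptors, was among the first of these at 379 to 610 normalised reads in cKO libraries and 689 to 903 in WT libraries (log2 fold change -0.55, limma adjusted p = 0.106).

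Neighbouring pathways of the crypt gave 1 call. In the Notch pathway 1 of 14 genes tested fell and 2 had an unadjusted limma p under 0.05, with a median of 0.058 for the 14, where 0.882% of all genes tested fell in limma. That gene was Nrarp, a Notch target that feeds back on the pathway, with 12.7, 7.28, 14.3, 14.9 and 18.4 normalised reads in cKO 1 to 5, against 31.7, 28.4, 42.9, 80.8 and 40.1 in WT 1, 3, 4, 5 and 6. Its groups did not overlap and its log2 fold change was -1.61 (limma adjusted p = 0.0326), and the adjusted p was above 0.05 without cKO 3, WT 3, WT 4, WT 5 or WT 6, reaching 0.0890. In the BMP pathway, which opposes stem cell renewal, 0 of 21 genes passed in limma or edgeR, 1 did in DESeq2 (Grem1, a BMP antagonist, log2 fold change 0.79, limma adjusted p = 0.106), and 6 had an unadjusted limma p under 0.05, with a median of -0.13. Among ephrin-B ligands and other Eph receptors 0 of 10 passed by any of the 3 tools and 2 had an unadjusted limma p under 0.05, and the ephrin gene Efnb1 had a log2 fold change of -0.60 (limma adjusted p = 0.152).

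Of 22 proliferation genes 0 passed in limma or edgeR, 1 did in DESeq2 (Ccna2, cyclin A2), and 4 had an unadjusted limma p under 0.05. Their log2 fold changes were above 0 for 20 of the 22, with a median of 0.46. Ccna2 had 291, 66.4, 224, 116 and 204 normalised reads in cKO 1 to 5, against 96.1, 83.0, 60.4, 113 and 78.0 in WT 1, 3, 4, 5 and 6 (log2 fold change 0.91, limma adjusted p = 0.168), so that cKO 1, 3 and 5, the libraries high in Olfm4, were also the highest for Ccna2. Ube2c, which had the smallest limma p of the list, did not share this order. It had 122, 107, 185, 156 and 156 normalised reads in cKO 1 to 5 and between 56.7 and 127 in WT libraries (log2 fold change 0.76, limma adjusted p = 0.111), with cKO 4 above cKO 1.

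**Figure D5:**
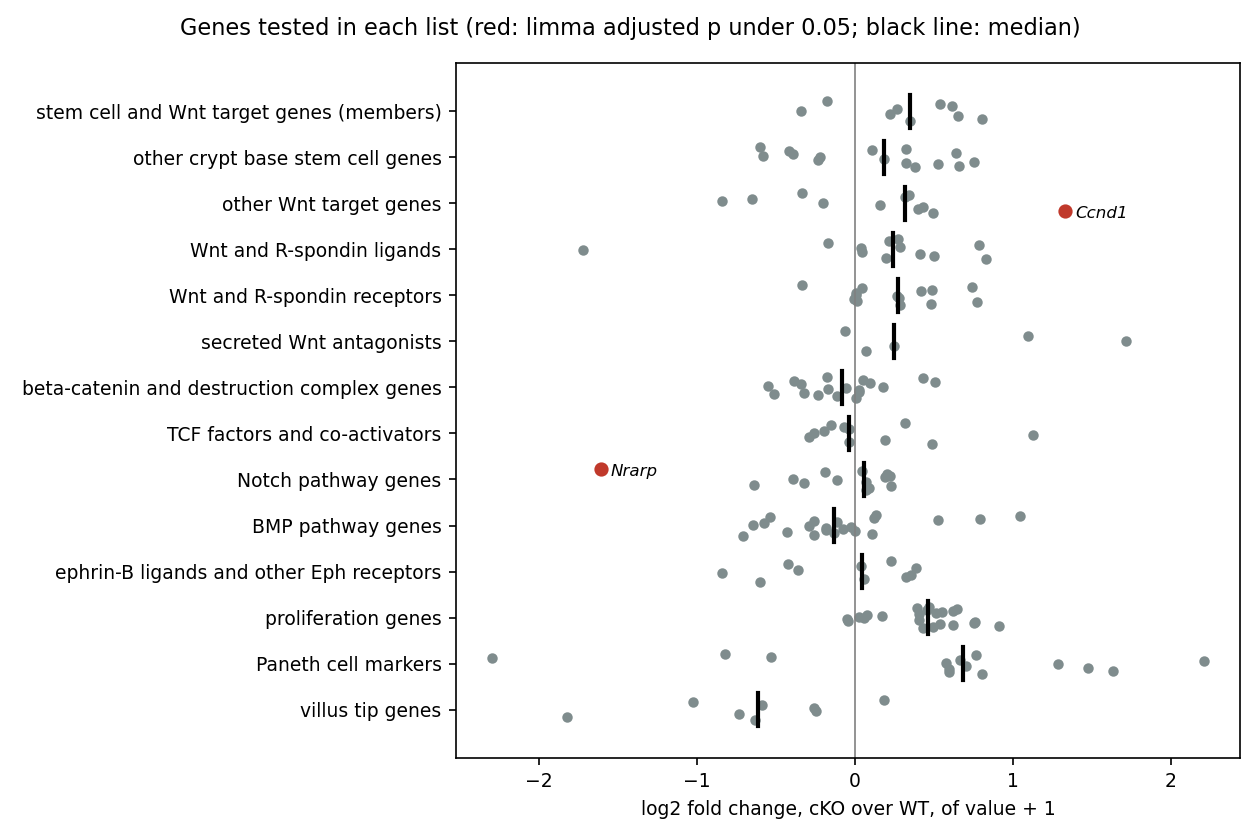
Log2 fold change, cKO over WT, on the scale of log2(normalised reads + 1) (horizontal axis) of the genes tested in each of 14 gene lists (rows), where each point is a gene, black lines are medians, and red points have a limma adjusted p under 0.05. The medians run from -0.61 for villus tip genes to 0.69 for Paneth cell markers, and Ccnd1 and Nrarp are the red points.

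The other cell types of the tissue moved with the labels in part. Over all genes tested, 0.441% rose and 0.882% fell in limma, 18.6% had an unadjusted limma p under 0.05, and 4.87% had groups without overlap. Villus tip genes, expressed by the oldest enterocytes, had log2 fold changes below 0 in 7 of 8 and summed to between 78330 and 163240 normalised reads in cKO libraries and between 166800 and 219190 in WT libraries, without overlap, although 0 of the 8 passed in limma or edgeR, 2 did in DESeq2 and 5 had an unadjusted limma p under 0.05. The lower values were not particular to the villus tip. Among the 15 enterocyte markers only 1 log2 fold change was above 0, and the median was -0.54, although their sums overlapped between the groups. Of these 15, 0 passed in limma or edgeR, 2 did in DESeq2 and 8 had an unadjusted limma p under 0.05. Endothelial markers summed to between 1168 and 2053 in cKO libraries and between 593 and 793 in WT libraries, with all 10 log2 fold changes above 0, and 1 of 10 rose (Lyve1, a lymphatic marker). Lyve1 alone held 513 to 1045 normalised reads of this sum in cKO libraries and 194 to 385 in WT libraries. It was the only 1 of the 10 whose groups did not overlap. Of 12 fibroblast markers 2 rose (Col1a1 and Col3a1) and 0 fell in limma, with 10 values above 0. The matrix protein gene Fbln1 went the other way without overlap, at 1268 to 2232 normalised reads in cKO libraries and 2388 to 2995 in WT libraries (log2 fold change -0.74, limma adjusted p = 0.0639, DESeq2 adjusted p = 0.0170). Of 11 enteroendocrine markers 2 rose (Chga and Nts) and 0 fell, with 6 values above 0. The hormone genes Sst, Gip and Cck had log2 fold changes of -0.74, -0.62 and -0.31 (limma adjusted p = 0.154, 0.185 and 0.253). Fbln1, Sst, Gip and Cck were named after their values were seen. Of 4 ileal markers tested 1 rose (Slc51b, a bile acid exporter subunit). Lyve1 kept an adjusted p of at most 0.0137 when any 1 library was left out. The adjusted p of each of Col1a1, Col3a1, Chga, Nts and Slc51b passed 0.05 without cKO 3, WT 1, WT 3, WT 4 or WT 5, for some of them also without cKO 1, cKO 2, cKO 5 or WT 6, and reached 0.106 for Col3a1, 0.120 for Col1a1, 0.110 for Chga, 0.116 for Nts and 0.105 for Slc51b. Pan-epithelial markers summed to between 206170 (cKO 3) and 532760 normalised reads in cKO libraries and between 373590 and 469800 in WT libraries. No marker of the villus tip, endothelial, fibroblast or pan-epithelial lists was listed at 0 in any library. Their part in the values of the 10 crypt genes was not tested.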

How the data were processed

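Total RNA of 10 jejunal samples was sequenced. Per the submitters' processing notes, the authors used CASAVA, HISAT2 2.0.5, mm10, featureCounts 1.5.0-p3 and DESeq2 1.20.0. The sources used here give no role for these tools, no strand setting, no annotation release and no rule for reads that match several places. The deposited table holds, for every gene and library, a normalised signal that the values show to be reads divided by 1 size factor per library, since 100% came out as whole reads within 0.001. It also holds the authors' log2 fold changes, p-values and adjusted p-values, used only where named; which libraries entered them was not checked. In all, 2 further columns of per-sample values match no label and were not used.

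The table held normalised values, from which whole reads could be recovered. The main test, on the values as given, was limma 3.58.1 in R 4.3.3 on log2(value + 1) with genotype alone, an intensity trend and robust moderation. It covered genes with a mean of 10 or more (14062), with Benjamini-Hochberg adjustment over all of them and a threshold of 0.05. Fold changes on this scale understate those of low genes. Recovered reads were tested with edgeR 4.0.16 (quasi-likelihood, TMM factors) and DESeq2 1.42.0 as alternatives. The other alternatives were edgeR with library totals, other pseudocounts, filters and thresholds, a block for the replicate number, leaving out each library in turn, and leaving out cKO 3 and cKO 5. The steps were tested on simulated data of 5 against 5 libraries. There limma called 4.17% of the genes changed 1.5-fold, 55.1% of those changed 2-fold and 91.6% of those changed 4-fold. On the limma scale the largest fold among the crypt genes tested was 1.75 (Olfm4). The log2 fold change of Olfm4 was 1.09 in edgeR and 1.08 in DESeq2. The share of genes called at the fold and spread of these crypt genes was not tested.

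The 10 genes and the gene lists were chosen with earlier results of these data known. Genes outside the 10 were named where they passed the limma test in a list, or else from the 2 genes with the smallest limma p in it. From cell type lists, only genes past the test were named, except where the text says that a gene was named after its values were seen. Fabp6, Slc10a2, Slc51a and Nr1h4 (tissue check), Per2, Mki67, Plk1 and Sp5 were also chosen so. The replicate numbers were not treated as pairs. Within groups, libraries correlated at 0.946 to 0.972 in cKO and 0.965 to 0.977 in WT (log2 values, across genes, and genes are not independent), and no 2 were near copies.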

Additional observations from a re-analysis of the deposited data

Results flagged for a closer look

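In 74 groups of 5 libraries (the 10 crypt genes, Elavl1 and the other named genes, each in cKO and in WT), 6 had 1 library set apart from the others by more than the critical value of Dixon's test, and chance alone gives about 1 in 20. Ascl2 was at 11.4 normalised reads in cKO 1, where the next cKO library was at 5.33. Ephb2 was at 197 in cKO 5, with the next at 92.7. Among the genes of the related pathways, Lrp6 was low in cKO 2, at 307 with the next at 400, and Pygo1, a co-activator of beta-catenin, was high in cKO 3, at 26.2 with the next at 14.4. In WT libraries, Nrarp was at 80.8 in WT 5, with the next at 42.9, and Col3a1 at 1542 in WT 6, with the next at 1189.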

How the results depend on the processing

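Over 21 alternatives, 0 of the crypt genes passed the test, and 205 of 210 of their values kept their direction. The exceptions were Sox9, at 0.015 in edgeR with TMM factors, 0.090 in edgeR with library totals, 0.0089 in DESeq2, 0.13 without cKO 3 and cKO 5, and, leaving out each library, between -0.46 (without cKO 4) and 0.092 (without cKO 3). Elavl1 turned to 0.033 with library totals. The median of the 10 genes was 0.48 with library totals, where the median of all genes tested moved to 0.14, and lay between 0.21 and 0.41 when each library was left out.

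The number of genes called, 186 (62 higher, 124 lower), was 711 in DESeq2, 512 at an adjusted p under 0.1 and 56 without cKO 3 and cKO 5, and edgeR with library totals split its calls into 86 higher and 74 lower. Leaving out 1 library gave 30 (without WT 4) to 611 (without cKO 4), with 65 without cKO 3, 111 without cKO 5, and 94, 43, 67 and 60 without WT 1, WT 3, WT 5 and WT 6; the cause was not tested.

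On the 8 libraries whose replicate numbers occur in both groups, a replicate block gave 134 genes called, 0 crypt genes and a median of 0.44, against 89 genes called on the same libraries without the block. The deviations of same-numbered libraries correlated at 0.118, 0.0218, -0.105 and 0.0957 for numbers 1, 3, 4 and 5, so the numbers are not taken to pair the mice. Depth limits Ascl2, Znrf3, Ephb3 and Lgr5, with 3 to 48 reads per library.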
